A study of Mus musculus with 18 samples.

Results

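The neuropeptide precursors were 10 genes chosen by symbol: Nts, Tac1, Tac2, Avp, Oxt, Npy, Vip, Penk, Cartpt and Gal. They were chosen with earlier results of these data known, so their distance from other genes is partly a matter of that choice. All 10 were found among the 23063 genes of the tables. RNA was sequenced from sorted mouse thymic epithelial cells of 3 kinds: cortical cells (cTEC) and medullary cells of a lo and a hi gate (mTEClo and mTEChi). Wild-type (WT) animals and animals lacking Aire (Aire KO), all aged 6 to 8 weeks, each gave the 3 kinds, with 3 libraries in each of the 6 groups. Every sample, WT included, carries the strain label B6.129S2-Airetm1.1Doi/J, the name of the Aire-mutant line. The labels name no surface marker behind the gates and do not say whether the libraries of a group came from separate mice. The p-values therefore measure only the spread between these libraries, which may be technical.

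A neuropeptide precursor is a secreted protein that is cut at basic residues inside secretory granules into short signalling peptides. Such genes are known from neurons and endocrine cells. Medullary thymic epithelium also transcribes many tissue-restricted genes, a large share of them under the control of the nuclear protein Aire, and thereby shows their products to developing T cells.

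The members lie on several chromosomes of the mm10 build, and all are protein-coding. Nts lies at chr10:102481756-102490418 (minus strand), Tac2 at chr10:127724478-127731768 (plus) and Vip at chr10:5639218-5647614 (plus). Tac1 lies at chr6:7555071-7562973 (plus) and Npy at chr6:49822729-49829505 (plus). Avp, at chr2:130580677-130582541 (minus), and Oxt, at chr2:130576173-130576988 (plus), face each other across 3689 bases. Penk lies at chr4:4133536-4138445 (minus), Cartpt at chr13:99898483-99900683 (minus) and Gal at chr19:3409917-3414457 (minus). In the GENCODE vM21 annotation, Penk overlaps A830012C17Rik on the other strand. Whether the authors' counting used strand is not given in the sources used here.

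The starts of the genes are shown because the members moved together in mTEChi while their upstream sequences differed. RefSeq (GRCm38.p6) held a window of 250 bases before to 50 after the start for 9 of the 10 members, and Penk was without one. The 80 bases before the RefSeq start follow for 6 members, 5′ to 3′ on the strand of the gene. Capitals mark ATAAA with its first base 40 to 20 bases before the start, the place of a TATA-type element.
Vip (chr10:5639138-5639217, plus): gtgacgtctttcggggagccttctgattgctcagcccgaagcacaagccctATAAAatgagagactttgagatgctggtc
Oxt (chr2:130576089-130576168, plus): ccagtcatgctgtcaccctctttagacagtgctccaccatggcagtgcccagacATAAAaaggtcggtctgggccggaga
Tac1 (chr6:7554981-7555060, plus): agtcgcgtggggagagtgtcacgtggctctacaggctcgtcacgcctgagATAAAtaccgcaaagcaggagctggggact
Npy (chr6:49822630-49822709, plus): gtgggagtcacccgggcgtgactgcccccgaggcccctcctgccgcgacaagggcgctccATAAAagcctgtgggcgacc
Nts (chr10:102490419-102490498, minus): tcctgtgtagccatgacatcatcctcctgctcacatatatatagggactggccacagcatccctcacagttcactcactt
Tac2 (chr10:127724398-127724477, plus): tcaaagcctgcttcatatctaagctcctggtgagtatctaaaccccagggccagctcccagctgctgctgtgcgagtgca

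The letters ATAAA, on the sense strand at that place, were in 4 of the 9 member windows and in 4.25% of all 32851 windows. The longer TATAAA, which contains ATAAA, was there in 1 member (Vip) and in 1.99% of windows. TGACG, the core of the cyclic-AMP response element, on either strand and anywhere in the window, was in the windows of 5 members (Tac1, Vip, Nts, Cartpt and Gal) and in 20.8% of windows. The full palindrome TGACGTCA, which holds that core on both strands, was in Cartpt only among the 9, and in 1.79% of windows. These motifs were chosen after the windows had been seen, and a match is a description of letters only.

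Depth, taken as aligned bases on genes, was 4.54 to 18.1 Gb per library, and both extremes were WT mTEClo libraries. The cell type labels were compared with markers, and no value checks the genotype labels. Psmb11, a proteasome subunit of cortical epithelium, was at 10.14 to 21.76 RPKM in the cTEC libraries and at 0.5685 to 2.124 RPKM in all others. Other markers were less clear. Between WT mTEChi and WT cTEC, 5 of 6 cortical markers were called lower in mTEChi and 1 higher, Dll4 (means of 15 and 5.01 RPKM). Of 8 medullary markers, 6 were higher and 2 lower, Krt5 (342 and 808 RPKM) and Krt14 (132 and 325 RPKM). Of all tested genes, 31.8% were lower and 46.6% higher. RPKM scales the sequence aligned to a gene by the length of its gene model and by a total of the library. Aire was at 658, 680.8 and 693.4 RPKM in WT mTEChi and at 1126, 1001 and 1091 RPKM in KO mTEChi. The tables give 1 value per gene, so this value does not check the deleted part, and the mean of Aire was higher in KO than in WT in all 3 cell types. KO cTEC replicate 1 stood apart from the other KO cTEC libraries, with Aire at 95.61 RPKM against 35.88 and 27 RPKM and the fibroblast-marker gene Dcn at 166.3 RPKM against 388.5 and 392.1 RPKM. Counts of genes called in KO cTEC are given with and without it.

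All 10 precursors were lower in KO than in WT mTEChi. Their summed level was 212 to 286 RPKM in the WT libraries and 3.44 to 4.47 RPKM in the KO libraries. Of all 19451 genes tested, 52.8% were called lower in this comparison, so the direction alone was common. The median difference was -6.46 over the members and -0.39 over all tested genes, on the log2 scale of RPKM + 0.1. Only 13.2% of tested genes were called and at least 4-fold lower, and all 10 members were among them. Quantile normalization moved the median of all tested genes to 0.08 and the calls from 10269 lower and 1862 higher to 4808 lower and 6064 higher; all 10 members were called lower there too. The RPKM scale is per length of gene, so levels can be set side by side. In bulk libraries, fewer cells expressing a gene and less RNA per cell cannot be told apart.

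**Figure D1:**
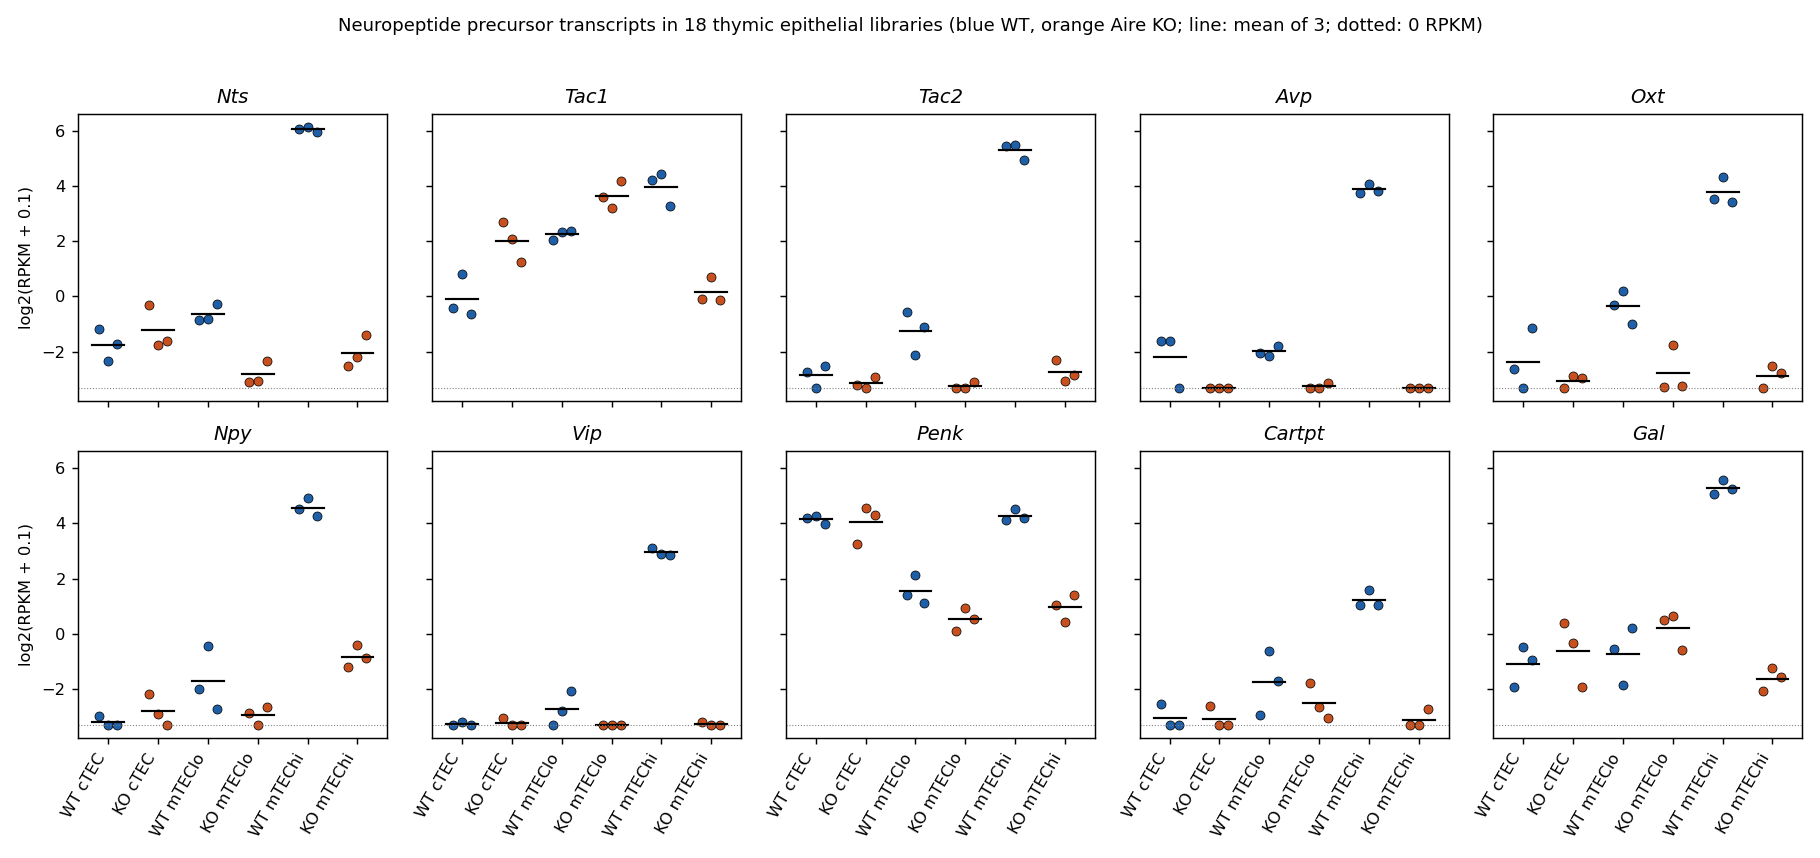
RPKM of each precursor in each of the 18 libraries, on a log axis, by group (WT blue, Aire KO orange). The WT mTEChi libraries lie above the KO mTEChi libraries for all 10 genes, and Penk is also high in the cTEC libraries.

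Nts, the precursor of neurotensin, a gut and brain peptide, was the highest member in WT mTEChi. It was at 67.1, 70.6 and 62.2 RPKM in the WT mTEChi libraries and at 0.0752, 0.119 and 0.275 RPKM in KO mTEChi. The groups were far apart, and 97% of all genes were lower than Nts in WT mTEChi. The difference was -8.10 (SE 0.394; adjusted p = 8.2e-11, limma). Replicate spread in WT mTEChi was also the smallest of the members, with a coefficient of variation of 6.37%.

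The tachykinin precursors parted from each other. Tac2, which encodes neurokinin B, was at 43.6, 45.2 and 30.8 RPKM in WT mTEChi and at 0.1, 0.02 and 0.037 RPKM in KO mTEChi. Tac1, which encodes substance P and neurokinin A, was at 18.6, 21.7 and 9.57 RPKM in WT mTEChi and at 0.827, 1.51 and 0.823 RPKM in KO mTEChi. Both pairs of groups were without overlap, but KO libraries kept a readable level of Tac1 and almost none of Tac2. The differences were -8.05 for Tac2 (SE 0.333; adjusted p = 1.3e-11) and -3.83 for Tac1 (SE 0.419; adjusted p = 9.4e-07). Tac1 also had the widest spread of the members among WT mTEChi libraries, with a coefficient of variation of 37.9%.

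Avp and Oxt encode vasopressin and oxytocin, the hormones of the posterior pituitary, each with a carrier neurophysin. Avp was at 13.5, 16.7 and 13.9 RPKM in WT mTEChi and was listed at 0 in all 3 KO mTEChi libraries (adjusted p = 3.1e-11, limma); no fold is given against 0. Oxt was at 11.5, 20.3 and 10.7 RPKM in WT mTEChi and at 0, 0.0724 and 0.0449 RPKM in KO mTEChi, a difference of -6.66 (SE 0.509; adjusted p = 1.6e-08). Neither gene's groups overlapped. The middle exons of both genes are closely alike in sequence, and how the authors' counting treats reads shared by such copies is not given in the sources used here.

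Gal, the precursor of galanin, was at 33.4, 47.8 and 38 RPKM in WT mTEChi and at 0.136, 0.321 and 0.239 RPKM in KO mTEChi, a difference of -6.93 (SE 0.579; adjusted p = 4.5e-08). Npy, the precursor of the appetite-promoting neuropeptide Y, was at 22.7, 30.2 and 19.2 RPKM in WT mTEChi and at 0.328, 0.659 and 0.437 RPKM in KO mTEChi, a difference of -5.41 (SE 0.451; adjusted p = 4.4e-08). Vip, the precursor of vasoactive intestinal peptide, was at 8.52, 7.41 and 7.19 RPKM in WT mTEChi and at 0.00758, 0 and 0 RPKM in KO mTEChi, a difference of -6.25 (SE 0.226). These 3 genes were thus at 0 to 0.659 RPKM in the KO mTEChi libraries, with Npy the highest of them. Cartpt, the precursor of the appetite-suppressing CART peptides, was the lowest member in WT mTEChi, at 1.98, 2.87 and 1.94 RPKM, and was at 0, 0 and 0.05 RPKM in KO mTEChi. Its difference was -4.35 (SE 0.462; adjusted p = 6.8e-07).

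Penk, the precursor of the enkephalins, kept the highest level in KO mTEChi. It was at 17.3, 22.7 and 18.4 RPKM in WT mTEChi and at 1.97, 1.25 and 2.56 RPKM in KO mTEChi. The groups did not overlap, and the difference of -3.32 (SE 0.331; adjusted p = 3.3e-07) was the least negative of the members.

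**Figure D2:**
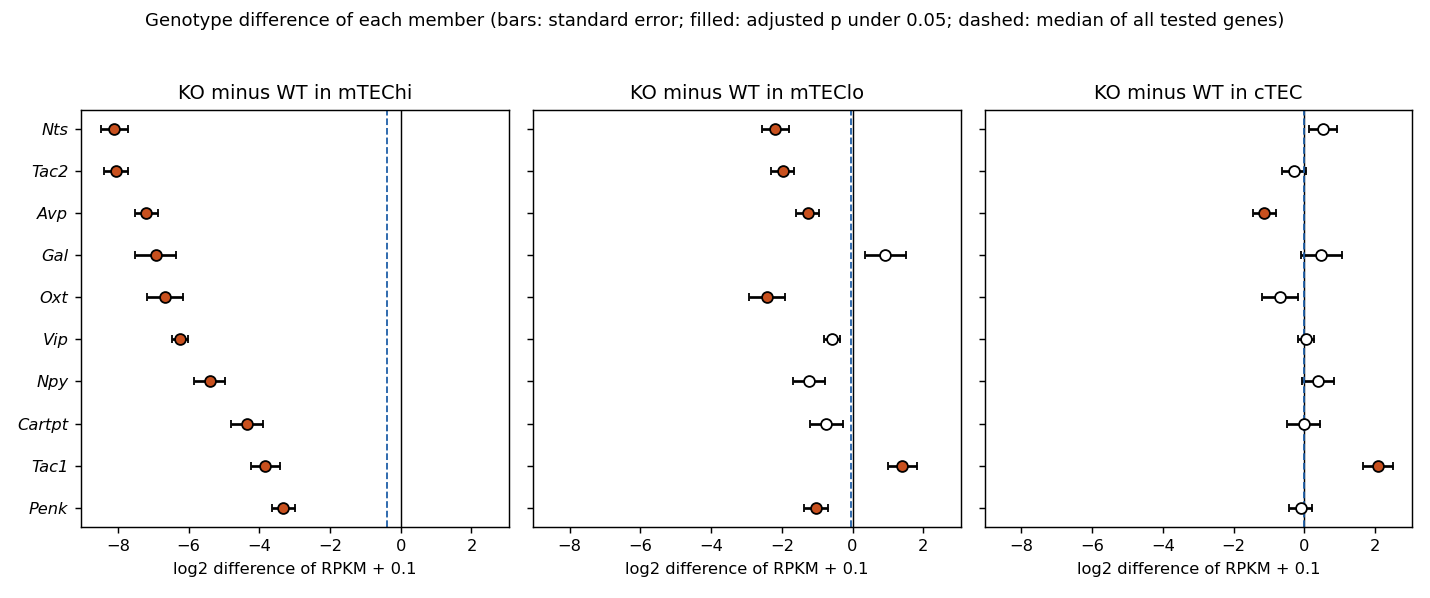
KO minus WT difference of log2(RPKM + 0.1) for each precursor in cTEC, mTEClo and mTEChi, with SE bars; filled points had an adjusted p under 0.05. The 10 points in mTEChi lie between -8.10 and -3.32, and Tac1 lies above 0 in cTEC and mTEClo.

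All 10 members passed the filter of at least 0.1 RPKM in at least 3 libraries. Vip passed only through WT mTEChi, with 1 other library at that level. It had to differ wherever WT mTEChi was compared, so its calls there are no evidence and no p is given for them. Counts of all 10 members in such comparisons hold Vip as a description. No member's WT and KO mTEChi libraries overlapped, which was so for 60.1% of all tested genes in the lower direction. The sizes depended on the added 0.1 for genes near 0 in KO. With 0.01 and 1 added instead, the difference was -9.32 and -3.12 for Vip, -8.57 and -3.81 for Oxt, -6.94 and -1.67 for Cartpt and -9.51 and -5.26 for Tac2. The calls stayed under these settings.

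Markers of other cell types were measured in the same libraries, and their counts stand beside 52.8% of all tested genes called lower and 9.57% called higher. Of 12 neuron markers 9 were called lower in KO mTEChi and none higher; their summed level was 135 to 142 RPKM in WT and 132 to 137 RPKM in KO, most of it Syt1 (mean 83.9 and 121 RPKM). Of 8 neuroendocrine markers, 5 were lower and 1 higher, with sums of 185 to 197 RPKM in WT and 198 to 206 RPKM in KO. Of 5 Schwann cell markers, 4 were lower, with sums of 20.3 to 23.1 RPKM in WT and 14.3 to 16.2 RPKM in KO. The neuroendocrine marker Nkx2-2 and the Schwann cell marker Sox10 passed the filter only through WT mTEChi and had to be lower. Without them, 4 of 7 neuroendocrine and 3 of 4 Schwann cell markers were lower, beside 48.7% of the genes that passed without WT mTEChi. Of 8 thymocyte markers, 4 were lower and none higher, with sums of 31.8 to 51.9 RPKM in WT and 13.2 to 23.3 RPKM in KO. Of 8 dendritic cell or macrophage markers, 5 were lower and 1 higher; their sums of 344 to 374 RPKM in WT and 361 to 392 RPKM in KO were mostly Lyz2 (mean 321 and 349 RPKM), while Emr1 had means of 5 and 0.198 RPKM. Of 6 fibroblast markers, 4 were lower and 1 higher, with sums of 53.4 to 59.5 and 41.9 to 57.8 RPKM; Col1a1 had means of 13.2 and 0.135 RPKM and Dcn of 15.7 and 32.7 RPKM. Of 5 endothelial markers, 2 were lower and none higher, with sums of 8.23 to 12.7 and 6.2 to 8.49 RPKM. No marker of these lists was listed at 0 in every library of a group. The part of such cells in the members' levels was not tested.

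Within WT mTEChi most members had the same highest and the same lowest library. Replicate 2 was the highest library for 9 of the 10 members, and replicate 3 the lowest for 7. Over the 15129 genes with a mean of at least 1 RPKM in WT mTEChi, replicate 2 was the highest for 34.9% and replicate 3 the lowest for 41.7%. The exception at the top was Vip, which was highest in replicate 1.

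In mTEClo the genotype difference was smaller and mixed. Of the members, 5 were called lower in KO (Nts, Tac2, Avp, Oxt and Penk) and 1 higher (Tac1), beside 8.04% lower and 7.93% higher of all tested genes. The median difference was -1.12 over the members and -0.04 over all tested genes. WT mTEClo held the members at a summed 9.26 to 12.3 RPKM, and KO mTEClo at 12.7 to 20 RPKM, most of it Tac1.

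Oxt was at 0.708, 1.06 and 0.404 RPKM in WT mTEClo and at 0.00254, 0.193 and 0.00493 RPKM in KO mTEClo (difference -2.41, SE 0.509; adjusted p = 0.0051). Nts was at 0.453, 0.472 and 0.724 RPKM in WT and at 0.0169, 0.0205 and 0.0973 RPKM in KO mTEClo (difference -2.18, SE 0.394; adjusted p = 0.0019). Tac2 was at 0.568, 0.128 and 0.369 RPKM in WT and at 0, 0 and 0.0166 RPKM in KO mTEClo (difference -1.98, SE 0.333; adjusted p = 0.0012). None of these 3 genes had overlapping groups, and the levels in both genotypes were far under those of WT mTEChi. Avp, at 0.142, 0.125 and 0.188 RPKM in WT and at 0, 0 and 0.0126 RPKM in KO mTEClo, was lower by -1.27 (SE 0.322; adjusted p = 0.015). That call was lost with 1 added in place of 0.1 (-0.20; adjusted p = 0.12) and without WT mTEClo replicate 3 (-1.16; adjusted p = 0.069).

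Tac1 moved the other way. It was at 4.07, 4.9 and 5.03 RPKM in WT mTEClo and at 12, 9.12 and 17.9 RPKM in KO mTEClo. Every KO library was above every WT library, by a difference of 1.41 (SE 0.419; adjusted p = 0.032). The call was lost when any 1 library but KO replicate 2 was left out: the adjusted p was then 0.1, 0.058 and 0.081 without WT replicate 1, 2 and 3, and 0.074 and 0.13 without KO replicate 1 and 3, with differences between 1.16 and 1.47. The summed neuron markers were 33.5 to 42.3 RPKM in WT mTEClo and 34.1 to 43.1 RPKM in KO mTEClo, and none of the 12 was called. The summed neuroendocrine markers were 280 to 424 RPKM in WT and 174 to 210 RPKM in KO mTEClo, with 2 of 8 called lower. Aire was at 7.753, 9.134 and 12.82 RPKM in WT mTEClo and at 33.13, 21.49 and 16.25 RPKM in KO mTEClo. Summed dendritic cell or macrophage markers were 36.26, 42.43 and 41.64 RPKM in WT mTEClo and 85.35, 76.01 and 146.1 RPKM in KO mTEClo. They were in the library order of Tac1 in KO and not in WT. Of these 8 markers, 2 were called higher and 1 lower, beside 7.93% and 8.04% of all tested genes. The part of other cells in the Tac1 difference was not tested.

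Penk was at 2.55, 4.25 and 2.09 RPKM in WT mTEClo and at 0.966, 1.8 and 1.36 RPKM in KO mTEClo. The groups did not overlap, but the difference of -1.03 (SE 0.331; adjusted p = 0.046) lay close to the threshold. It was not called with 1 added in place of 0.1 (-0.71; adjusted p = 0.087), with no filter on low genes (adjusted p = 0.058), without the trend (adjusted p = 0.061), when limited to the mTEClo groups (adjusted p = 0.091) or without 5 of the 6 libraries in turn, all but KO replicate 2 (-1.24 to -0.74, with adjusted p of 0.051 to 0.17). Npy (-1.22; adjusted p = 0.078), Vip (-0.59; adjusted p = 0.089), Cartpt (-0.74; adjusted p = 0.31) and Gal (0.92; adjusted p = 0.32) were not called in mTEClo, and their WT and KO libraries overlapped. Npy and Vip were called lower after centring on housekeeping genes (-1.34; adjusted p = 0.041 and -0.71; adjusted p = 0.032), Npy also without WT mTEClo replicate 3 (-1.73; adjusted p = 0.024) and Vip without WT mTEClo replicate 1 (-0.89; adjusted p = 0.013).

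In cTEC 1 member was called higher in KO, Tac1, and 1 lower, Avp, beside 13.3% higher and 6.76% lower of all tested genes. The median difference was 0.02 over the members and -0.01 over all tested genes. Tac1 was at 0.651, 1.65 and 0.543 RPKM in WT cTEC and at 6.42, 4.11 and 2.3 RPKM in KO cTEC. All KO libraries were higher than all WT libraries, by 2.09 (SE 0.419; adjusted p = 0.0022). Without KO cTEC replicate 1 the difference was 1.75 (adjusted p = 0.014), and with the spread taken from the cTEC groups alone the adjusted p was 0.14.

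Other genes moved with Tac1 in those libraries. Summed neuron markers were 8.072, 11.91 and 6.908 RPKM in WT cTEC and 41.99, 24.99 and 17.77 RPKM in KO cTEC, in the same order of KO libraries as Tac1. Of the 12, 5 were called higher and 1 lower, and without KO cTEC replicate 1 these were 4 and 1. Aire, a medullary marker, was at 2.089, 3.945 and 7.386 RPKM in WT cTEC and at 95.61, 35.88 and 27 RPKM in KO cTEC, again in that order of KO libraries. In WT cTEC the neuron sum was in the order of Tac1, and Aire was not. Summed dendritic cell or macrophage markers were 41.02, 79.21 and 74.72 RPKM in WT cTEC and 150.2, 124.1 and 165.4 RPKM in KO cTEC. They were in another order than Tac1 in both genotypes. Of these 8 markers, 2 were called higher and 1 lower, and without replicate 1 these were 2 and 0. Of 8 medullary markers measured, 4 were called higher and none lower in KO cTEC, with and without replicate 1. Of 12 secretory granule genes, 7 were called higher and none lower, and 5 without that library. Of all tested genes, 13.3% were higher and 6.76% lower with it, and 10.2% and 3.77% without it. With the spread taken from the cTEC groups alone, only 12 of all tested genes were called higher and 6 lower. The marker and granule lists were not counted in that fit. The part of these cells in the Tac1 difference was not tested.

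Avp was at 0.222, 0.223 and 0 RPKM in WT cTEC and was listed at 0 in all 3 KO cTEC libraries (adjusted p = 0.021). The groups overlapped at 0. The call was lost with 1 added in place of 0.1, in the fit of the cTEC groups alone, and without WT cTEC replicate 1, WT cTEC replicate 2 or KO cTEC replicate 1, with adjusted p of 0.056 to 0.3.

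Penk was the only member at a high level in the cortex. It was at 18.3, 19.2 and 15.6 RPKM in WT cTEC and at 9.46, 23.5 and 19.9 RPKM in KO cTEC. The KO libraries lay on both sides of the WT libraries, and the difference was -0.10 (SE 0.331; adjusted p = 0.9). Without KO cTEC replicate 1, the library with the least Penk, it was 0.29 (adjusted p = 0.6). The genotypes were thus not told apart for Penk in cTEC at this spread.

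**Figure D3:**
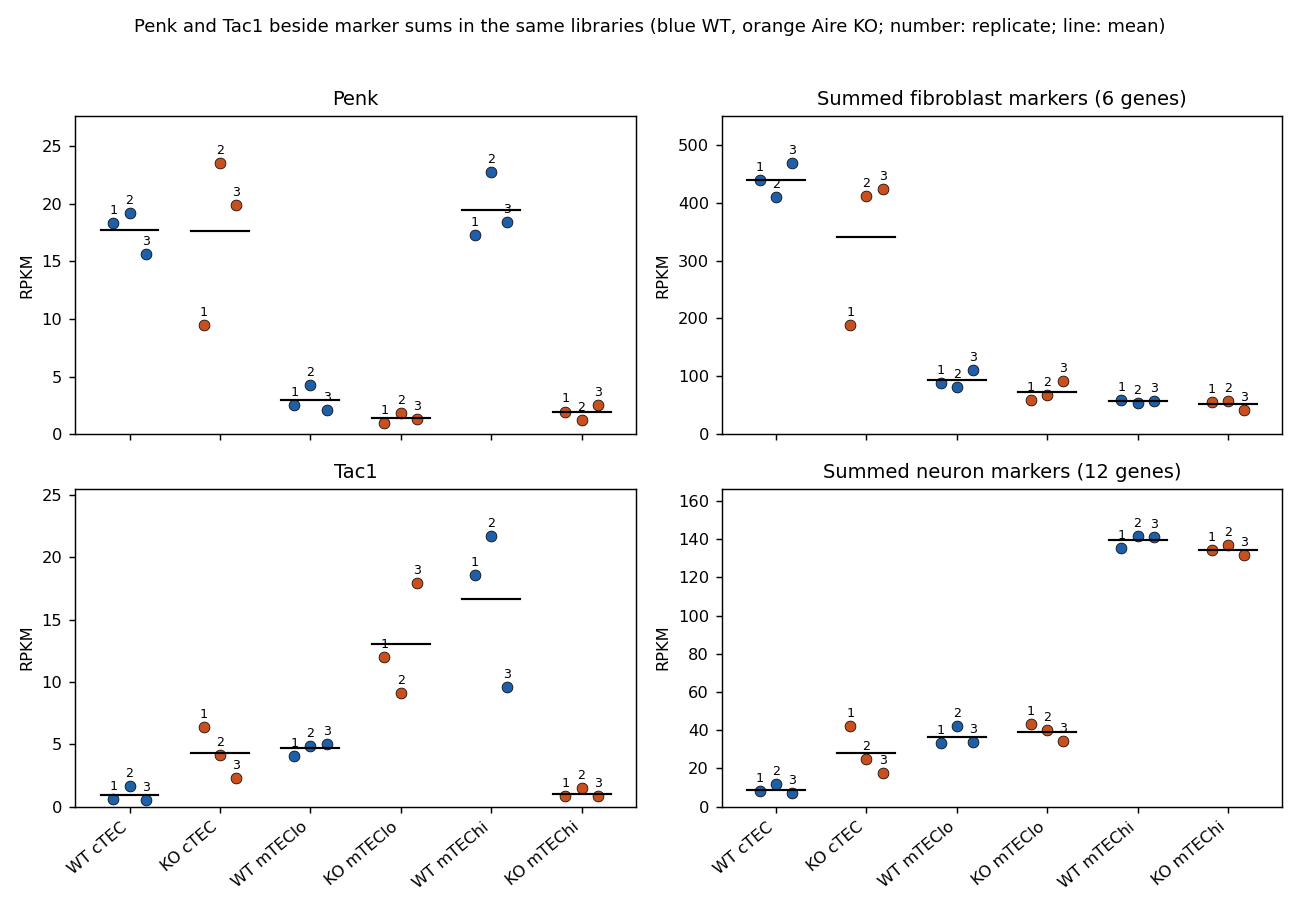
RPKM of Penk and Tac1 (left) and of summed fibroblast and neuron markers (right) in each library, numbered by replicate, with group means as lines. Penk and the fibroblast sum are both lowest, among cTEC libraries, in KO replicate 1, as is the sum of cortical markers (not plotted). Of Penk and the fibroblast sum, only Penk is high in WT mTEChi. Tac1 and the neuron sum follow the same order in KO cTEC.

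The 6 fibroblast markers summed to 439.4, 410.4 and 469.4 RPKM in WT cTEC and to 189.2, 412.3 and 423.3 RPKM in KO cTEC. Most of this was Dcn, with 401.8, 358.2 and 410.1 RPKM in WT cTEC, a gene that was at 14 to 16.92 RPKM in WT mTEChi, where Penk was at 17.3 to 22.7 RPKM. The fibroblast sum was 81.2 to 110 RPKM in WT mTEClo and 53.4 to 59.5 RPKM in WT mTEChi. The 6 cortical markers summed to 1517, 1641 and 1142 RPKM in WT cTEC and to 905.1, 1658 and 1179 RPKM in KO cTEC. Most of this was Ctsl, with means of 1050 RPKM in WT cTEC and 932 RPKM in KO cTEC. In WT mTEClo the mean of Ctsl was 813 RPKM and that of Penk 2.96 RPKM. The cortical sums were in the library order of Penk in both genotypes, and the fibroblast sums were not in either. The cortical marker Psmb11 was at 21.76, 20.48 and 11.27 RPKM in WT cTEC, not in the order of Penk. In KO cTEC it was at 10.14, 20.54 and 10.99 RPKM, in the order of Penk. The part of fibroblasts or of cortical epithelium in Penk of the cTEC libraries was not tested.

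Across WT populations, all 10 members were higher in mTEChi than in mTEClo, beside 41.6% of all tested genes called higher and 31.1% called lower. Vip had to be higher there, since it passed the filter only through WT mTEChi. The median difference was 5.79 over the members and 0.12 over all tested genes. Nts showed the greatest rise among the members (6.71, SE 0.394; adjusted p = 4.3e-10), followed by Tac2 (6.57), Npy (6.30), Gal (6.03) and Avp (5.88). The smallest differences were those of Tac1 (1.73, SE 0.419; adjusted p = 0.0015), Penk (2.73, SE 0.331; adjusted p = 1.8e-06) and Cartpt (2.98, SE 0.462; adjusted p = 2.6e-05). WT libraries of the lo and hi gates did not overlap for any member.

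Against WT cTEC, 9 members were higher in WT mTEChi, by 4.06 for Tac1 to 8.16 for Tac2, beside 46.6% of all tested genes called higher. Penk was not called (0.13, SE 0.331; adjusted p = 0.73), and its libraries overlapped. Between WT mTEClo and WT cTEC, 6 members were higher in mTEClo and Penk was lower, beside 24.6% and 18.2% of all tested genes. Tac1 (2.33; adjusted p = 0.0003) and Tac2 (1.59; adjusted p = 0.0011) were called higher in mTEClo also when only the 2 groups were fitted. Oxt (2.01; adjusted p = 0.0044), Npy (1.48; adjusted p = 0.014), Cartpt (1.30; adjusted p = 0.033) and Nts (1.10; adjusted p = 0.033) were not called in that fit, with adjusted p of 0.053 to 0.15. Penk fell by 2.60 from cTEC to mTEClo (SE 0.331; adjusted p = 1.1e-05).

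In the KO the rise from mTEClo to mTEChi was seen in 1 member, Npy (2.11, SE 0.451; adjusted p = 0.00059), beside 23.4% of all tested genes called higher. Npy was at 0.035, 0 and 0.0602 RPKM in KO mTEClo and at 0.328, 0.659 and 0.437 RPKM in KO mTEChi. Those groups did not overlap. Tac1 (-3.51, SE 0.419; adjusted p = 1.6e-06) and Gal (-1.82, SE 0.579; adjusted p = 0.011) were lower in KO mTEChi than in KO mTEClo, beside 43.7% of all tested genes. Gal was at 1.31, 1.48 and 0.569 RPKM in KO mTEClo and at 0.136, 0.321 and 0.239 RPKM in KO mTEChi. Tac1 and Gal were thus higher in mTEChi than mTEClo in WT and lower in KO, and neither gene's groups overlapped in either genotype. The other 7 members were not called.

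The order of the 6 groups differed between members. For Nts, Tac2, Avp, Oxt, Vip and Cartpt, WT mTEChi came first by the mean and WT mTEClo second, and these groups did not overlap. For Gal the order was WT mTEChi, KO mTEClo, KO cTEC, WT mTEClo, WT cTEC and KO mTEChi, and from KO mTEClo down each neighbouring pair overlapped. For Npy KO mTEChi came second, overlapping with WT mTEClo. Tac1 went from WT mTEChi through KO mTEClo, WT mTEClo, KO cTEC and KO mTEChi to WT cTEC; WT mTEChi overlapped with KO mTEClo, WT mTEClo with KO cTEC, and KO mTEChi with WT cTEC. For Penk the leading groups, WT mTEChi, WT cTEC and KO cTEC, overlapped in turn and lay above the rest.

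The difference between the genotype effects of mTEChi and mTEClo was tested directly. It was negative and called for all 10 members, Vip as a description only. Of all tested genes, 40.9% were called lower and 6.01% higher. The median was -5.45 over the members and -0.39 over all tested genes. Penk had the smallest difference in size (-2.29, SE 0.468; adjusted p = 0.00083) and Gal the greatest (-7.85, SE 0.819; adjusted p = 1.4e-06).

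Genes that make, store, receive and degrade these peptides were compared next, by lists chosen with earlier results of these data known. Their counts in KO mTEChi stand beside 52.8% of all tested genes called lower and 9.57% called higher, and their medians beside -0.39. Genes that passed the filter on low values only through WT mTEChi had to differ, so they are given by their levels with no p, and counts that hold them are a description. Of 35 other neuropeptide precursors, 28 were lower in KO mTEChi, 1 was higher and 6 were not called, with a median difference of -2.22. Of these 35, 9 passed only through WT mTEChi, among them Nms, Pnoc, Galp and Ucn; of the other 26, 19 were lower, or 73.1%, beside 48.7% of the 17704 genes that passed without WT mTEChi. Nms, the precursor of neuromedin S, was at 4.78 ± 0.198 RPKM (SD, n = 3) in WT and 0.00412 ± 0.00714 RPKM in KO mTEChi. Pnoc, the precursor of nociceptin, was at 2.45 ± 0.34 and 0.00908 ± 0.011 RPKM. Galp, the galanin-like peptide precursor, and Ucn, the urocortin precursor, were at 0.912 ± 0.261 and 0.803 ± 0.19 RPKM in WT mTEChi and were listed at 0 in KO. The member that was higher was Calcb, the precursor of the beta form of calcitonin gene-related peptide, at 242 ± 20 RPKM in WT and 517 ± 32.5 RPKM in KO mTEChi (difference 1.10; adjusted p = 0.021). Its paralog Calca, at 67.2 ± 6.13 and 29.9 ± 4.4 RPKM, was not called (-1.17; adjusted p = 0.15), and reads shared by this pair could have been split by the counting. Calcb was named after its values were seen. In mTEClo 2 of the 35 were lower in KO and 3 higher, beside 8.04% and 7.93% of all tested genes. In cTEC 1 was lower and 4 higher, beside 6.76% and 13.3% of all tested genes. Without KO cTEC replicate 1 these were 0 and 5, beside 3.77% and 10.2%. In the fit of the cTEC groups alone, only 6 of all tested genes were called lower and 12 higher. This list was not counted there.

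**Figure D4:**
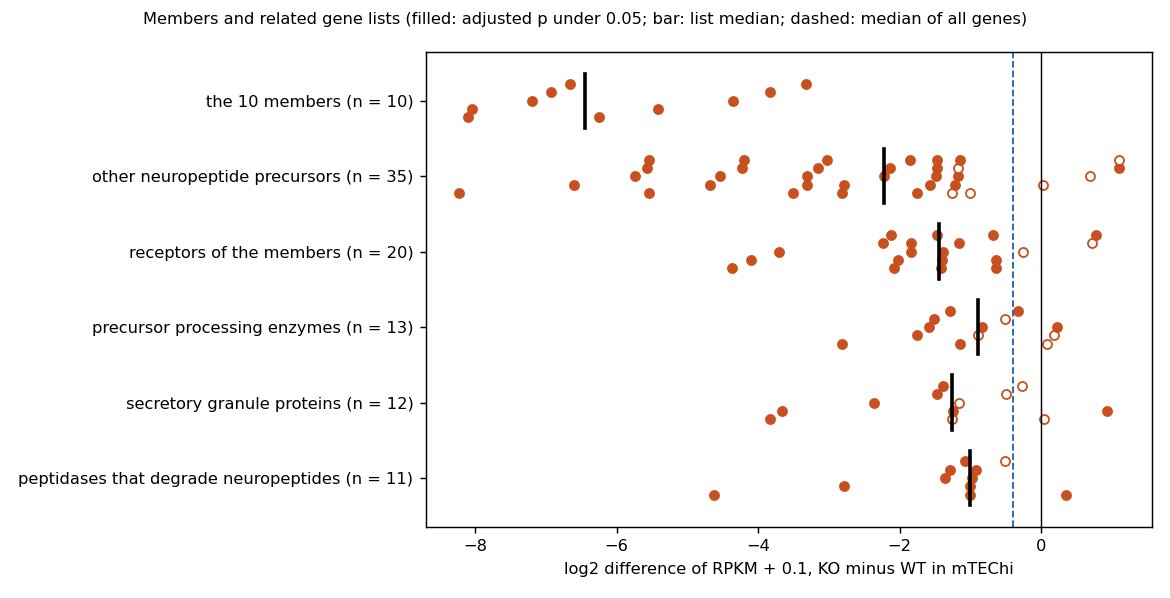
KO minus WT differences of log2(RPKM + 0.1) in mTEChi for the 10 precursors and 5 related gene lists; filled points had an adjusted p under 0.05, bars are list medians and the dashed line is the median of all tested genes. The members' median of -6.46 lies farther left than the median of every other list.

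Of the 24 receptor genes of the member peptides in the tables (Npy4r under its older symbol Ppyr1), 20 were tested; 17 were lower in KO mTEChi, 1 was higher and 2 were not called, with a median difference of -1.44. The 4 untested receptors were those too low for the filter. Of the 20, 6 passed only through WT mTEChi, among them Ntsr1, Ntsr2 and Tacr2; of the other 14, 11 were lower and 1 was higher. Ntsr1, a neurotensin receptor, was at 2 ± 0.262 RPKM in WT mTEChi and 0.000987 ± 0.00171 RPKM in KO. Tacr2, the neurokinin A receptor, was at 1.85 ± 0.155 and 0.0137 ± 0.012 RPKM. Adcyap1r1, a receptor of the peptide family of VIP, was at 3.86 ± 0.642 and 0.204 ± 0.0432 RPKM. Ntsr2, also a neurotensin receptor, had 0.379 ± 0.112 RPKM in WT mTEChi and was listed at 0 in every KO mTEChi library. The receptor that was higher was Tacr1, the substance P receptor, at 1.48 ± 0.144 RPKM in WT and 2.62 ± 0.375 RPKM in KO mTEChi (0.78; adjusted p = 0.002), also named after its values were seen. Oprd1, the delta opioid receptor, which binds enkephalins, was at 6.27 ± 0.839 and 10.4 ± 0.716 RPKM and was not called (0.72; adjusted p = 0.32).

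Of 13 enzymes that process precursors, 8 were lower in KO mTEChi, 1 was higher and 4 were not called, with a median of -0.89; 8 of 13 is not far from the 52.8% of all tested genes. Pcsk2, a prohormone convertase of neuroendocrine cells, was at 1.7 ± 0.376 RPKM in WT and 0.153 ± 0.0259 RPKM in KO mTEChi (-2.81; adjusted p = 1.4e-07). Furin, a convertase of most cells, was at 19.1 ± 1.15 and 8.53 ± 0.164 RPKM (-1.15; adjusted p = 1.2e-09). Pcsk5, a convertase, was at 3.28 ± 0.213 and 1.28 ± 0.0875 RPKM, and Ctsl, the lysosomal protease cathepsin L, at 98 ± 20.1 and 29.2 ± 7.18 RPKM. Cpd, which trims basic residues, was at 26.3 ± 1.59 and 27.9 ± 0.613 RPKM and was not called. The enzyme that was higher was Pam, which amidates peptide ends, at 54.7 ± 1.9 and 63.7 ± 0.607 RPKM (0.22; adjusted p = 0.016), named after its values were seen.

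Of 12 secretory granule genes, 6 were lower in KO mTEChi, 1 was higher and 5 were not called, with a median of -1.25, again beside 52.8% lower of all tested genes. The granins Scg2 (6.61 ± 1.38 RPKM in WT and 0.471 ± 0.298 RPKM in KO) and Chgb (7.68 ± 2.31 and 0.458 ± 0.197 RPKM) were among the lower ones. Resp18 (122 ± 7.54 and 101 ± 8.35 RPKM) was not called. Syt7, a calcium sensor of exocytosis, was at 8.66 ± 0.434 and 3.07 ± 0.364 RPKM, and Pcsk1n, an inhibitor of a convertase that passed the filter only through WT mTEChi, had 0.423 ± 0.11 RPKM in WT mTEChi and was listed at 0 in every KO mTEChi library. The higher gene was Ptprn2, a granule membrane protein, at 8.57 ± 1.08 and 16.4 ± 0.331 RPKM (0.93; adjusted p = 0.0082), named after its values were seen. Of 11 peptidases, 9 were lower, 1 was higher and 1 was not called, with a median of -1.01. Ace, the angiotensin-converting enzyme, was at 4.48 ± 0.456 RPKM in WT and 0.0871 ± 0.0259 RPKM in KO mTEChi (-4.62; adjusted p = 2.3e-08). Enpep (6.31 ± 0.657 and 0.827 ± 0.13 RPKM), Prep (19.7 ± 1.1 and 9.92 ± 1.08 RPKM) and Nln (4.88 ± 0.316 and 1.85 ± 0.255 RPKM) were lower as well. Dpp4 was at 2.27 ± 0.162 and 1.57 ± 0.251 RPKM and was not called, and the peptidase called higher was Lnpep (12.8 ± 1.21 and 16.5 ± 1.06 RPKM), named after its values were seen.

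The genes beside the members were compared in the same contrast. Of the 54 neighbours (3 on each side, each counted once), 51 were tested in mTEChi; 28 were lower in KO, 8 higher and 15 not called. Thus 54.9% were lower, beside 52.8% of all tested genes. At least 4-fold lower were 6 neighbours, or 11.8%, beside 13.2% of all tested genes. It was not checked which neighbours passed the filter on low values only through WT mTEChi. Any that did had to differ, so these counts are a description. The members, chosen with earlier results of these data known, lay among genes that moved less than they did.

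**Figure D5:**
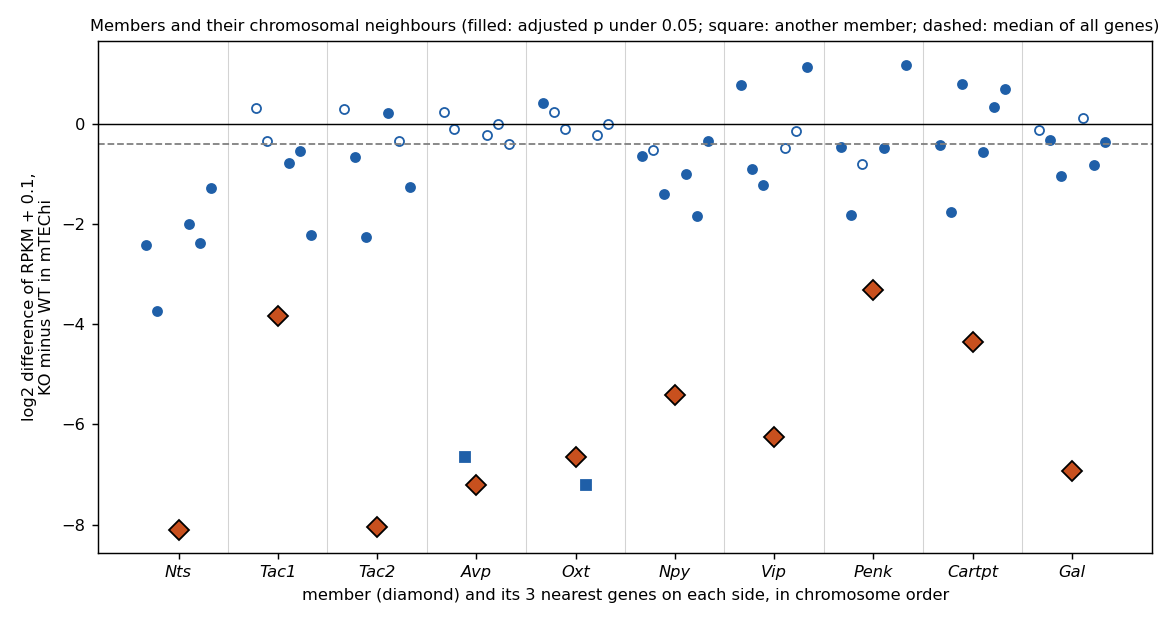
KO minus WT difference of log2(RPKM + 0.1) in mTEChi for each precursor and for the tested genes among its 3 nearest on each side; filled points had an adjusted p under 0.05. Each precursor lies lower than all of its plotted neighbours, except that Avp and Oxt neighbour each other.

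Around Avp and Oxt, the nearest other genes were not called: Mrps26 was at 20.7 ± 1.86 RPKM in WT and 19.5 ± 1.75 RPKM in KO mTEChi, and Ubox5 at 2.48 ± 0.0993 and 2.12 ± 0.0846 RPKM. The next gene upstream of Tac2, the myosin gene Myo1a at a distance of 3538 bases, was at 14.6 ± 1.16 and 3 ± 0.087 RPKM (-2.25; adjusted p = 1.6e-06), whereas the transcription factor gene Zbtb39 on the other side was slightly higher in KO (0.22; adjusted p = 0.048). All 5 tested neighbours of Nts were lower, Rassf9 as the nearest tested one, at 0.772 ± 0.227 and 0.117 ± 0.0457 RPKM. Among the others, Mgat4c and 1700017N19Rik were at 1.25 ± 0.18 and 0.453 ± 0.163 RPKM in WT mTEChi and listed at 0 in KO. Alx1 was at 0.467 ± 0.194 and 0.00535 ± 0.00927 RPKM. These genes were named after their values were seen, and whether the filter fixed their calls was not checked. Map1b beside Cartpt was higher in KO, and Mccc2, Mtl5 (beside Gal), Myct1 (beside Vip), Impad1 (beside Penk), Stk31 and Mpp6 (both beside Npy) and Asns (beside Tac1) were lower. Ppp6r3 beside Gal, Fbxo5 beside Vip, Sdr16c6 beside Penk and Acn9 beside Tac1 were not called.

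The genes most like each member were found by Pearson's correlation of log2(RPKM + 0.1) over the 18 libraries, among 14678 genes. The libraries share the 6 groups, so a high value shows mainly that 2 genes are high in the same groups, and no test is given. Vip was most like Kap (0.999), Pnlip (0.998) and Tdpoz4 (0.998), and Tac2 most like Prss29 (0.996), Ins2 (0.995) and Acsm4 (0.995). All of these were high in WT mTEChi and at or near 0 in KO mTEChi. Nts came closest to Crybb2 (0.986), Pax8 (0.985) and Mcpt2 (0.981), Avp to Cym (0.987), Opalin (0.986) and Itgad (0.985), and Npy to Sost (0.984), Krt84 (0.982) and Bcan (0.980). Oxt came closest to Fgb (0.971), Spt1 (0.968) and Ppy (0.968), Gal to Cdh16 (0.969), Fndc5 (0.962) and Fam169a (0.960), and Cartpt to Tmsb15a (0.963), Fgb (0.963) and Calb2 (0.961).

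Tac1 and Penk had other neighbours in this ranking. Tac1 was most like Tmc5 (0.955), Irx1 (0.949) and Capn13 (0.941). Tmc5 had means of 4.25 RPKM in WT mTEChi, 2.76 RPKM in KO mTEClo and 0.573 RPKM in KO mTEChi. Tac1 had the same order in those groups. Penk was most like Sptssb (0.974), Cyp26b1 (0.965) and Rab3il1 (0.964). Sptssb had means of 5.35 RPKM in WT cTEC, 3.6 RPKM in WT mTEChi and 0.967 RPKM in WT mTEClo, high like Penk in both cortex and mTEChi. Between members, the correlation was 0.98 for Vip with Nts, Tac2 or Avp, and -0.05 for Penk with Tac1.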

How the data were processed

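RNA from 18 libraries of sorted mouse thymic epithelial cells was analysed. The authors deposited, library by library, RPKM per gene and a signal, the number of aligned bases on each gene, which is not a read count. Per the submitters' processing notes, the build was mm10 and CASAVA 1.8.2 was used. For the aligner settings, the annotation and any use of strand: not given in the sources used here. Groups came from the labels. No rescaling was applied to the deposited RPKM. The 19451 genes that reached 0.1 RPKM in 3 or more libraries were modelled as log2(RPKM + 0.1) with limma 3.58.1 in R 4.3.3, with a trend, 6 group means and all 18 libraries. A gene was called where its p, adjusted by Benjamini-Hochberg over all genes tested, was under 0.05, and every adjusted p in the text comes from this model or a named alternative to it. Fold changes of genes near 0 depend on the added 0.1 and are no bounds. The model was tested on simulated data. The precision is set by the spread between 3 libraries per group, since the tables hold no read counts from which a counting interval could be made.

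The members and lists were chosen with earlier results of these data known. All members are named throughout; from each list, up to 4 called genes with the smallest adjusted p in KO minus WT in mTEChi and the highest gene not called are named, and the 3 genes most like a member and its nearest neighbours are named. Replicate numbers were checked for pairing by correlating deviations from group means over genes: r was -0.30 to 0.17 over 21 pairs. In 1 of 7 comparisons, WT mTEClo with WT cTEC, every pair was over 0.1 (0.11, 0.17 and 0.15). Those numbers may mark pairs, but the values are low and the labels do not say so. The main fit held no replicate block, and a block was run as an alternative. Alternatives were other pseudocounts, filters and scalings, no trend, only the groups compared, a replicate block and leaving out each library.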

Additional observations from a re-analysis of the deposited data

Results flagged for a closer look

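All 10 members were flagged because the KO effect in mTEChi differed from the KO effect in mTEClo when the difference itself was tested (limma, adjusted over all 19451 genes tested, log2 scale of RPKM + 0.1). Of all tested genes, 40.9% were called lower and 6.01% higher in that test, so a call alone was common. The difference was -5.91 for Nts (adjusted p = 4.6e-07), -5.24 for Tac1 (adjusted p = 3.3e-06), -6.07 for Tac2 (adjusted p = 5.7e-08) and -4.25 for Oxt (adjusted p = 0.00017). It was -4.18 for Npy (adjusted p = 6.3e-05), -2.29 for Penk (adjusted p = 0.00083), -3.61 for Cartpt (adjusted p = 0.0003) and -7.85 for Gal (adjusted p = 1.4e-06). For Vip it was -5.66, with no p given, since Vip passed the filter only through WT mTEChi and had to differ. For Avp, listed at 0 in KO mTEChi, the fitted -5.94 (adjusted p = 5e-08) depends on the added 0.1. Tac1 is the member whose KO effect was called in opposite directions in mTEChi (-3.83) and mTEClo (1.41). Gal was called lower in KO mTEChi (-6.93) and not called in KO mTEClo (0.92). With 0.01 in place of 0.1, the calls were lost for Oxt (-4.23; adjusted p = 0.06) and Npy (-3.13; adjusted p = 0.079).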

How the results depend on the processing

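Of 915 values of the 57 members' called differences under the alternatives, 871 kept direction and call, 44 kept direction and lost the call, and 0 turned. Of 345 values of the 23 differences that were not called, 316 stayed so, 10 gained a call and 19 turned. The 10 falls in KO mTEChi stayed called under every alternative run. The members called lower in KO mTEClo were 3 in place of 5 with a pseudocount of 1, 4 with no filter, no trend or only the groups compared, 7 after centring on housekeeping genes (Npy and Vip added), and 4 to 5 with each library left out; those called higher were 0 to 1. In KO cTEC the members called lower were 0 with a pseudocount of 1 and 0 with only the groups compared, and 0 to 1 with each library left out; those called higher were 0 with only the groups compared. For WT mTEClo against WT cTEC, those called higher were 2 in place of 6 with only the groups compared, and 3 to 7 with each library left out, the 3 without WT mTEClo replicate 2. For KO mTEChi against KO mTEClo, those called higher were 3 with a pseudocount of 0.01 and 2 after centring on housekeeping genes, in place of 1, and 1 to 2 with each library left out, the 2 without KO mTEClo replicate 3.

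Differences that turned were all uncalled. Centring on housekeeping genes gave -0.10 for Vip in KO minus WT cTEC, -0.12 for Penk in WT mTEChi minus cTEC, -0.00 for Avp in WT mTEClo minus cTEC, and 0.13 for Avp and 0.08 for Oxt in KO mTEChi minus mTEClo, where a pseudocount of 0.01 also gave 0.08 for Oxt. Quantile normalization gave -0.11 for Avp and -0.02 for Gal in WT mTEClo minus cTEC. With each library left out, KO minus WT in cTEC was -0.04 to 0.09 for Vip, -0.36 to 0.29 for Penk, -0.26 to 0.23 for Cartpt and -0.02 to 1.14 for Gal; WT mTEClo minus cTEC was -0.37 to 0.48 for Avp and -0.08 to 0.94 for Gal; KO mTEChi minus mTEClo was -0.37 to 0.39 for Oxt. The causes were not tested.

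Over all tested genes, calls in KO mTEClo went from 1563 lower to 3525 after centring on housekeeping genes, and with a library left out to as few as 732 lower and 748 higher (from 1542), both without WT mTEClo replicate 3. Calls in KO cTEC went from 1315 lower to 2159 with quantile normalization, 3935 after centring and 6 with only the groups compared, to 674 without WT cTEC replicate 1, 733 without KO cTEC replicate 1 and 2148 without KO cTEC replicate 3, and from 2593 higher to 12 with only the groups compared. In WT mTEClo minus cTEC, lower calls went from 3533 to 5979 after centring. For the difference between genotype effects, calls went from 7950 lower and 1169 higher to 3550 and 4559 with quantile normalization, and to 2329 higher after centring. A replicate block changed no member's call, also in WT mTEClo minus cTEC, where the replicate numbers may mark pairs. Tac1 in KO minus WT mTEClo was 1.41 (adjusted p = 0.03, limma) with the block. In comparisons other than WT mTEClo with WT cTEC, replicates were taken to share only a number.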
